A study of Homo sapiens with 4 samples.

Results

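The genes described here encode 5 Eph receptors (EPHA2, EPHA4, EPHB2, EPHB3 and EPHB4) and 5 ephrin ligands (EFNA1, EFNA4, EFNA5, EFNB1 and EFNB2). They were chosen by symbol from the 48162 genes of the expression table, and each was found in it. The table holds 22 genes of the family in all, 14 receptors and 8 ephrins, of which the other 12 are described more briefly. Expression was measured by RNA sequencing of poly(A) RNA in the MDA-MB-231 line, derived from a human triple-negative breast cancer, that is, one lacking estrogen and progesterone receptors and ERBB2 amplification. Treatment was represented by 2 libraries of cells exposed for 24 h to 10 µM MGH-CP1, which the series title calls an inhibitor of TEAD palmitoylation. They were set against 2 libraries of cells given vehicle control. No genetic change is named in the sample labels of either group, and both come from this single line. Whether the replicates were separate cultures is not stated, so errors and p-values rest on the scatter of these 4 libraries, which may be technical scatter only. In the tests, the variance of each gene was also drawn toward that of other genes.

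Eph receptors are the largest family of receptor tyrosine kinases, and their ligands sit on the surface of neighbouring cells. Ephrin-A ligands are held to the membrane by a lipid (GPI) anchor and bind mainly EphA receptors, while ephrin-B ligands cross the membrane and bind mainly EphB receptors. Contact signals forward into the receptor cell and in reverse into the ephrin cell, and moves cells apart or together. EPHA2 in particular is known as a highly expressed receptor of basal-like breast cancer cells, in which it can promote migration when no ligand is bound. TEAD proteins, the named target of the compound, bind DNA as the partners of the Hippo pathway effectors YAP and TAZ.

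After MGH-CP1 the most abundant receptor, EPHA2, was lower and the most abundant ligand, EFNB2, was higher, each by about the same factor. EPHA2 fell to a mean of 91.9 FPKM with MGH-CP1, against 140 FPKM with vehicle, and EFNB2 rose to 38.4 FPKM with MGH-CP1, against 25.7 FPKM with vehicle. FPKM are fragments scaled by gene length and by the reads of the library, so that levels of different genes can be compared. EPHA4, EPHB4 and EFNA5 also rose, with less certainty, and EPHB2, EFNA1, EFNA4 and EFNB1 did not pass the test. EPHB3 was at 0.342 FPKM on average and was not tested. Tests were made with limma on log2(FPKM + 1) values of the 11790 genes that averaged 1 FPKM or more, with calls made below an adjusted p of 0.05. Of the 9 genes tested, 4 were called higher, where 20.0% of all tested genes were, and 1 was called lower, where 25.1% were. By voom on recovered reads the counts were also 4 and 1, where 24.1% of all tested genes were called higher and 24.8% lower. The count of higher genes was 1 (EFNB2) without MGH-CP1 replicate 1 and also without MGH-CP1 replicate 2, and it was 2 when unfiltered. Without vehicle replicate 1, 2 genes were lower (EPHA2 and EFNB1). All 9 were above 1 FPKM in every library, so that none reached the test through 1 group alone. Their median log2 fold change was 0.19, and that of all tested genes was -0.02. Because the RNA was taken from whole cultures, a change in every cell and a change in some of them cannot be told apart.

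**Figure D1:**
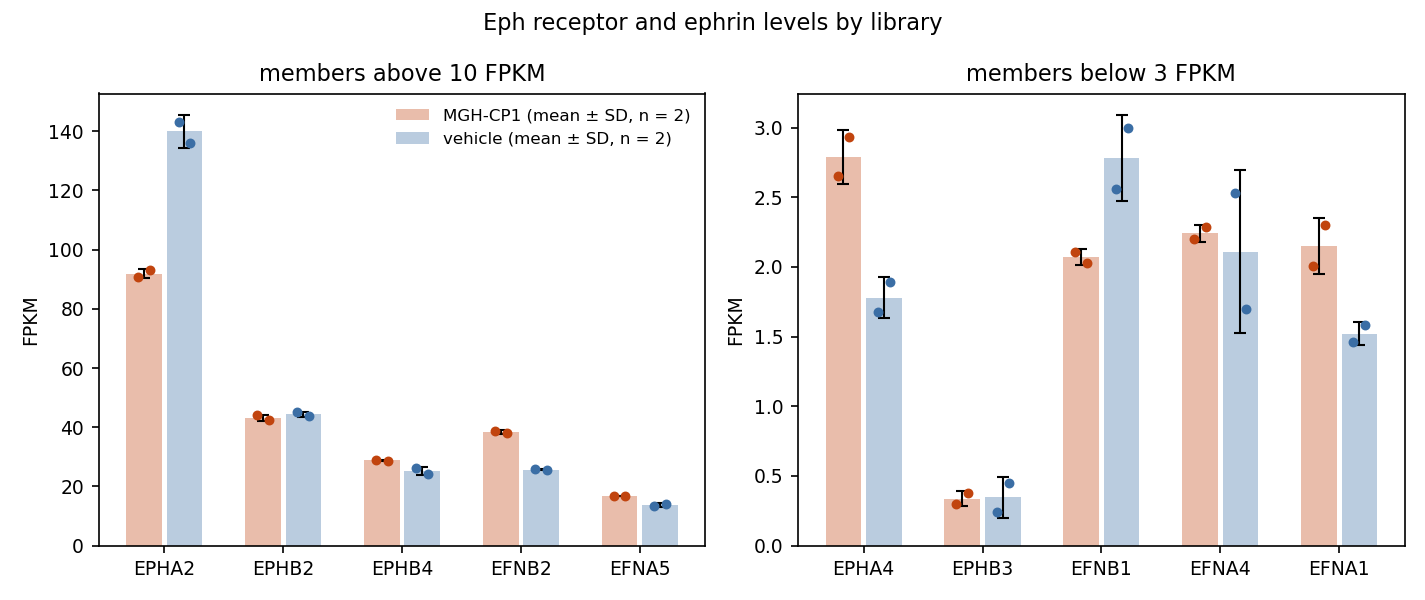
FPKM of the 10 genes, those above 10 FPKM on the left and those below 3 FPKM on the right, with bars for the mean of 2 libraries, error bars for the SD and a point for each library. The vehicle bar stands above the MGH-CP1 bar for EPHA2 (140 FPKM with vehicle) and EFNB1, and the MGH-CP1 bar stands above for EFNB2, EPHB4, EFNA5, EPHA4 and EFNA1.

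Depth and identity of the libraries were alike. They held 16960448 and 17295817 reads with MGH-CP1 and 16790645 and 18485701 reads with vehicle, as recovered from the FPKM values. ESR1 and PGR, which encode the estrogen and progesterone receptors, were at or near 0 (0 to 0.00228 FPKM on average), ERBB2 averaged 25.4 FPKM, and the mesenchymal markers VIM, CD44, MSN and AXL averaged 178 to 420 FPKM, while SPARC averaged 0.172 FPKM. VIM, CD44 and MSN were called higher with MGH-CP1 and AXL, itself a receptor tyrosine kinase, was called lower, with log2 fold changes of -0.94 for AXL and 0.30 or less for the others, and whether they bear on the Eph and ephrin levels was not tested. Endothelial markers matter here because EPHB4 and EFNB2 are textbook genes of veins and arteries. The 4 of these markers found in the table summed to 0.469 and 0.739 FPKM with MGH-CP1 and 0.619 and 0.938 FPKM with vehicle, with CDH5, VWF and TEK each under 0.1 FPKM on average. Immune markers summed to 3.63 to 3.96 FPKM with MGH-CP1 and 3.58 to 3.62 FPKM with vehicle, mostly from CD14, with PTPRC and CD3E under 0.1 FPKM and LYZ at 0.756 and 0.732 FPKM with MGH-CP1 and 0.354 and 0.272 FPKM with vehicle, and 4 fibroblast markers to 5.76 to 6.14 FPKM with MGH-CP1 and 4.96 to 7.18 FPKM with vehicle. All 4 TEAD target genes examined (CYR61, CTGF, ANKRD1 and AMOTL2) were lower with MGH-CP1, with log2 fold changes of -1.95 to -1.37.

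EPHA2 (ENSG00000142627, hg19 chr1:16450832-16482582, minus strand) encodes the main receptor of ephrin-A1. Its level was 90.8 and 93.0 FPKM in the MGH-CP1 libraries, against 143 and 136 FPKM in the vehicle libraries. Both MGH-CP1 values lay well below both vehicle values, and the counts behind them were large, at 6224 and 6254 reads with MGH-CP1 and 10513 and 9032 reads with vehicle. The means were 91.9 ± 1.58 FPKM with MGH-CP1 and 140 ± 5.49 FPKM with vehicle (SD, n = 2 each), a ratio of 0.658. On the log2(FPKM + 1) scale EPHA2 fell by 0.60 (SE 0.06, 95% interval -0.73 to -0.46; limma, adjusted p = 0.000236), and it was lower in 2 of 2 MGH-CP1 libraries. It ranked 424 by level among the 11790 tested genes and 1575 by size of change. Among the 4 tested receptors EPHA2 was the only one called lower, where 25.1% of all tested genes were called lower. Its call was kept in all 11 alternatives (adjusted p from 2.94e-06 by voom on recovered reads to 0.0081 by limma with no filter). An antisense gene that shares 877 bases of its span averaged 0.886 FPKM.

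The windows around the annotated starts of EPHA2 and EFNB2 are shown because these genes kept opposite calls in every alternative run, and TEAD proteins bind short DNA letters that can be looked up in them. Each runs from 250 bases before the start to 50 bases after it, 5′ to 3′ on the strand of the gene, from RefSeq on GRCh38.p14, at chr1:16156020-16156319 (minus strand) for EPHA2 and chr13:106535613-106535912 (minus strand) for EFNB2. Capitals mark the TEAD core motif GGAATG, here read on the opposite strand, as found by a search of both strands that also covered the AP-1 motif TGANTCA.
EPHA2: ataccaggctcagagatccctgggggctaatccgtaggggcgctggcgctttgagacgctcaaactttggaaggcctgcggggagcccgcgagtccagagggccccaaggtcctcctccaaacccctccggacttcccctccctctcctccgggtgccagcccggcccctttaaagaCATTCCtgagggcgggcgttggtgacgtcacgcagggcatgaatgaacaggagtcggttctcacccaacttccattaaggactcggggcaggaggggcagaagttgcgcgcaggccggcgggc
EFNB2: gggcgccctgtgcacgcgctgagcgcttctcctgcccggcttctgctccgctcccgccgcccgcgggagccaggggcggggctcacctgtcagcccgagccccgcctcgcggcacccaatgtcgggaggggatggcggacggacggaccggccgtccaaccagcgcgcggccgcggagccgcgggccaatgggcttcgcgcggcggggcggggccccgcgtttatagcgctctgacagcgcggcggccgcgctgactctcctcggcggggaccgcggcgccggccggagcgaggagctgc
EPHA2 held 1 match, whose first base lies 73 bases before the start, and EFNB2 held none. All 10 genes had a window, some of them 2 (12 windows), and EPHA2 was the only one with GGAATG, which occurs in 14% of all 35116 windows and in 16.7% of all 27305 genes with a window. None of the 10 genes had TGANTCA, which is found in 7.71% of windows and in 9.37% of genes with a window. No match of 1 motif therefore overlapped the other. A match is a run of letters and not a measured binding site, and distant enhancers lie outside these windows.

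Among the other receptors, EPHA4 (ENSG00000116106, chr2:222282747-222438922, minus strand), which binds ephrins of both classes and is best known for turning back growing axons, stood at 2.65 and 2.93 FPKM with MGH-CP1 and 1.68 and 1.89 FPKM with vehicle. These values did not overlap and rested on 291 and 315 reads with MGH-CP1 and 197 and 201 reads with vehicle. Its log2 fold change was 0.45 ± 0.11 (SE; limma, adjusted p = 0.0157). Since 1 FPKM added to such low values damps the change, the estimate by voom on the recovered reads was larger, at 0.67 ± 0.13 (adjusted p = 0.00058). The call was lost without MGH-CP1 replicate 1 (limma, adjusted p = 0.05002), without MGH-CP1 replicate 2 (0.108, the highest of 10 alternatives) and with no filter on low values (0.0835).

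EPHB4 (ENSG00000196411, chr7:100400187-100425121, minus strand), the receptor of ephrin-B2 on veins, stood at 29.0 and 28.7 FPKM with MGH-CP1 and 26.1 and 24.3 FPKM with vehicle. The groups did not overlap, but the gap of means was small, at 28.8 ± 0.205 FPKM with MGH-CP1 and 25.2 ± 1.31 FPKM with vehicle (SD, n = 2 each). Its log2 fold change was 0.19 ± 0.06 (SE, 95% interval 0.04 to 0.33; limma, adjusted p = 0.0441). Of 11 alternatives 5 ended the call, namely no filter, no mean-variance trend, and without vehicle replicate 2, MGH-CP1 replicate 1 or MGH-CP1 replicate 2 (limma, adjusted p of 0.0953, 0.0877, 0.108, 0.208 and 0.175, with a lowest of 0.0126 elsewhere). SLC12A9, on the opposite strand, shares 680 bases with the span of EPHB4 and averaged 7.5 FPKM, and reads there cannot be told apart if counting ignored strand.

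EPHB2 (ENSG00000133216, chr1:23037332-23241818, plus strand), a receptor of ephrin-B ligands that also binds ephrin-A5, stood at 44.0 and 42.5 FPKM with MGH-CP1 and 45.0 and 43.8 FPKM with vehicle. Here the groups overlapped. The log2 difference was -0.04 with a 95% interval of -0.17 to 0.09 (limma, adjusted p = 0.626), which leaves out a change of the size seen for EPHA2. EPHB3, a close relative of EPHB2, was at 0.3 and 0.376 FPKM with MGH-CP1 and 0.243 and 0.450 FPKM with vehicle, from 19 to 32 reads a library. No difference could be detected at that depth, and the span of EPHB3 lies within that of EIF2B5 on the same strand (15.8 FPKM), which leaves its reads uncertain.

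In the family as a whole 4 receptors made up nearly all of the receptor message. EPHA2, EPHB2, EPHB4 and EPHA4 together took 99.3% of the summed FPKM of the 14 receptors in each MGH-CP1 library and 99.5% in each vehicle library. The share of EPHA2 was 54.2% and 55.3% with MGH-CP1, against 66.0% and 65.6% with vehicle. EPHB2 took 26.2% and 25.3% with MGH-CP1 and 20.7% and 21.2% with vehicle, while its own level overlapped between the groups, and EPHB4 took 17.3% and 17.0% with MGH-CP1 and 12.0% and 11.8% with vehicle. The ratio of EPHA2 to EPHB2 was 2.07 and 2.19 with MGH-CP1 and 3.19 and 3.10 with vehicle. Shares of 1 total depend on each other and are given without a test, since an exact two-sided permutation test of 2 libraries against 2 cannot give a p below 0.333.

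**Figure D2:**
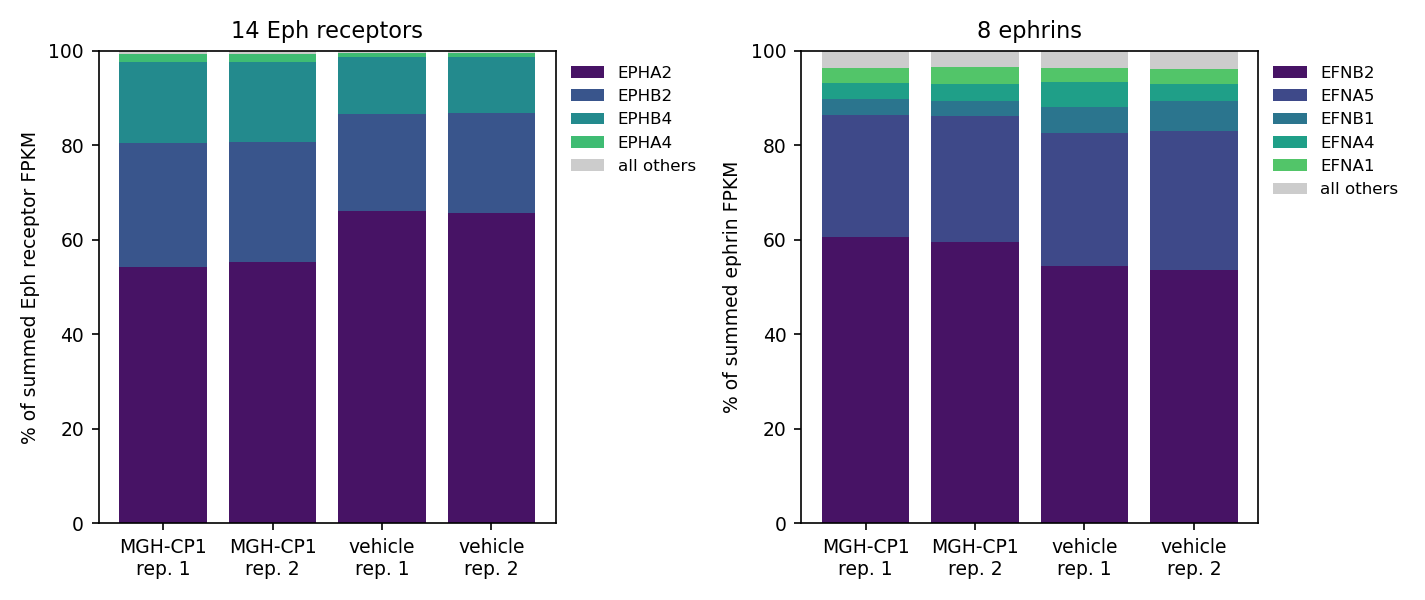
Share of the summed FPKM of the 14 Eph receptors (left) and of the 8 ephrins (right) taken by each gene, in percent, with 1 bar for each library. EPHA2 takes 54.2% and 55.3% of the receptor bar with MGH-CP1 and 66.0% and 65.6% with vehicle, and EFNB2 takes 60.5% and 59.6% of the ephrin bar with MGH-CP1 and 54.5% and 53.5% with vehicle.

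Turning to the ligands, EFNB2 (ENSG00000125266, chr13:107142079-107187462, minus strand) encodes ephrin-B2, a transmembrane ligand of EPHB4, EPHB2 and EPHA4. Its level was 38.8 and 37.9 FPKM in the MGH-CP1 libraries, against 25.8 and 25.7 FPKM in the vehicle libraries, from 1925 to 2997 reads. Replicates were close together and the groups far apart, with means of 38.4 ± 0.653 FPKM with MGH-CP1 and 25.7 ± 0.0572 FPKM with vehicle (SD, n = 2 each), a ratio of 1.49. The log2 fold change was 0.56 ± 0.06 (SE, 95% interval 0.43 to 0.69; limma, adjusted p = 0.000286), higher in 2 of 2 MGH-CP1 libraries. The call was kept in all 11 alternatives (adjusted p from 4.11e-06 by voom on recovered reads to 0.00578 by limma with no filter). Set against its receptor EPHB4 within each library, EFNB2 stood at a ratio of 1.34 and 1.32 with MGH-CP1 and 0.986 and 1.06 with vehicle. In vehicle the 2 genes were thus level within their spread, and with MGH-CP1 the ligand was above the receptor.

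EFNA5 (ENSG00000184349, chr5:106712590-107006596, minus strand) encodes ephrin-A5, a GPI-anchored ligand. It stood at 16.7 and 16.9 FPKM with MGH-CP1 and 13.3 and 14.2 FPKM with vehicle, with no overlap. Its log2 fold change was 0.27 ± 0.07 (SE; limma, adjusted p = 0.0143), but the call was lost without MGH-CP1 replicate 1 (limma, adjusted p = 0.082) and without MGH-CP1 replicate 2 (0.0943, the highest of 11 alternatives).

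The remaining 3 ligands were near 2 FPKM, and none passed. EFNA1 (ENSG00000169242, chr1:155099936-155107333, plus strand), the favoured ligand of EPHA2, was at 2.01 and 2.30 FPKM with MGH-CP1 and 1.46 and 1.58 FPKM with vehicle, from 51 to 75 reads. Its groups did not overlap, and its log2 difference of 0.32 had a 95% interval of 0.05 to 0.60 before adjustment (limma, adjusted p = 0.0596). The 1 FPKM added damps such low values. By voom on recovered reads EFNA1 differed by 0.53 ± 0.23 (SE, adjusted p = 0.0771), and its ratio of means was 1.42. EFNB1 (ENSG00000090776, chrX:68048840-68061990, plus strand), a ligand of EphB receptors, was at 2.11 and 2.03 FPKM with MGH-CP1 and 2.56 and 3.0 FPKM with vehicle, also without overlap (log2 difference -0.30; limma, adjusted p = 0.0661). Voom gave -0.39 ± 0.16 for EFNB1 (SE, adjusted p = 0.0611). Both lay close to the threshold, and with no mean-variance trend both were past it (limma, adjusted p = 0.0234 for EFNA1, with a highest of 0.288, and 0.0355 for EFNB1, with a highest of 0.235). EFNB1 was also past it without vehicle replicate 1 (limma, adjusted p = 0.0447). EFNA4 (ENSG00000243364, chr1:155036207-155042029, plus strand), another GPI-anchored ligand, was at 2.20 and 2.29 FPKM with MGH-CP1 and 2.53 and 1.70 FPKM with vehicle. The vehicle libraries were the highest and the lowest of the 4, on 59 and 36 reads, and the log2 difference of 0.07 (95% interval -0.28 to 0.42; limma, adjusted p = 0.72) changed sign without vehicle replicate 2 (-0.12). EFNA3 overlaps EFNA4 on the same strand over 5806 bases, so reads may be split between them.

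**Figure D3:**
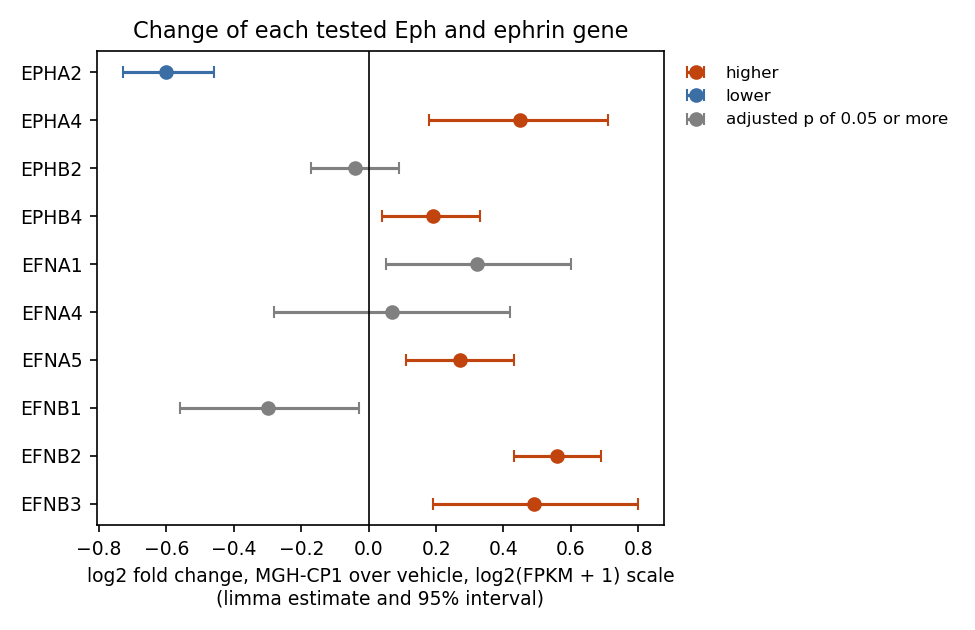
Log2 fold change of MGH-CP1 over vehicle for the 9 tested genes and for EFNB3, with points for the limma estimate and lines for its 95% interval. EPHA2 lies left of 0 (-0.60), EFNB2 (0.56), EPHA4, EPHB4, EFNA5 and EFNB3 lie right of it in the colour for higher, and EPHB2, EFNA1, EFNA4 and EFNB1 are grey.

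By level with MGH-CP1, the order was EPHA2, EPHB2, EFNB2, EPHB4 and EFNA5, each above the next by more than its spread, and then EPHA4, EFNA4, EFNA1 and EFNB1. EPHA4 averaged 2.79 ± 0.195 FPKM, EFNA4 2.24 ± 0.0637 FPKM, EFNA1 2.15 ± 0.201 FPKM and EFNB1 2.07 ± 0.0585 FPKM (SD, n = 2 each), and neighbours among the last 3 were not separated by their spread. In vehicle the upper part of the order was the same, except that EFNB2 (25.7 FPKM) and EPHB4 (25.2 ± 1.31 FPKM) were not separated. Below them EFNB1 came first with 2.78 ± 0.310 FPKM, followed by EFNA4 with 2.11 ± 0.587 FPKM, EPHA4 with 1.78 ± 0.146 FPKM and EFNA1 with 1.52 ± 0.0824 FPKM (SD, n = 2 each). Of these, EFNA4 was not separated from EFNB1, EPHA4 or EFNA1. Of the 9 tested genes 7 had groups that did not overlap, 5 of them higher and 2 lower, where 74.1% of all tested genes were without overlap, 34.7% higher and 39.4% lower, so that a gap between groups was the usual case in these libraries.

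Summed over the family, receptors were lower and ephrins higher with MGH-CP1. The 14 receptors summed to 168 FPKM in each MGH-CP1 library, against 217 and 207 FPKM in the vehicle libraries, and the difference lay in the EphA class (93.9 and 96.3 FPKM with MGH-CP1, 146 and 138 FPKM with vehicle). EphB receptors summed to 73.6 and 72.0 FPKM with MGH-CP1 and 71.7 and 68.7 FPKM with vehicle. The 8 ephrins summed to 64.2 and 63.6 FPKM with MGH-CP1 and 47.3 and 48.0 FPKM with vehicle, with ephrin-B at 42.7 and 41.5 FPKM with MGH-CP1 and 29.1 and 29.6 FPKM with vehicle. Ephrin message per receptor message was 0.384 and 0.378 with MGH-CP1 and 0.218 and 0.232 with vehicle. These sums follow EPHA2 and EFNB2, their largest parts, and were set up with the values of those genes known, so they are given as a description.

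Of the other 12 family genes, EFNB3 alone was abundant enough to test. EFNB3, a ligand of EPHA4 and EphB receptors known from the midline of the spinal cord, was at 1.72 and 1.56 FPKM with MGH-CP1 and 0.806 and 0.943 FPKM with vehicle. It rose by 0.49 ± 0.13 on the log2(FPKM + 1) scale (limma, adjusted p = 0.0174), a damped value, as the estimate by voom on recovered reads was 0.93 and the ratio of means was 1.87. It reached the test through its MGH-CP1 values, being under 1 FPKM in vehicle, and its call was lost with no filter and without either MGH-CP1 library (limma, adjusted p of 0.0699, 0.105 and 0.0625). The remaining 11 averaged 0 to 0.544 FPKM, 7 of them under 0.1 FPKM, and EPHA8 was listed at 0 in every library. EFNA2, named after its values were seen, had 0.135 and 0.0550 FPKM with MGH-CP1 and 0.429 and 0.278 FPKM with vehicle (limma with no filter, adjusted p = 0.0996), and its span lies within that of MUM1 on the same strand.

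Genes that carry or shape Eph and ephrin signals moved in both directions. Across 5 lists with 70 genes, 4 of which are described, 59 were tested, of which 14 were called higher (23.7%) and 8 lower (13.6%), with a median log2 fold change of 0.01, against 20.0% higher, 25.1% lower and a median of -0.02 over all tested genes. Without MGH-CP1 replicate 1 these counts were 9 higher and 5 lower, and with no filter 9 were higher. Of 21 tested adaptors and kinases 3 rose and 3 fell, with a median of 0.01. GRB10, an adaptor of receptor tyrosine kinases, was at 37.0 and 39.4 FPKM with MGH-CP1 and 25.1 and 24.0 FPKM with vehicle (log2 fold change 0.62 ± 0.06; limma, adjusted p = 0.00029). INPPL1, the lipid phosphatase SHIP2 that binds EPHA2 and slows its uptake into the cell, was at 70.3 FPKM in both MGH-CP1 libraries and 52.7 and 50.8 FPKM with vehicle (0.44 ± 0.05; limma, adjusted p = 0.000765). PTPN11, the phosphatase SHP2, was at 60.7 and 63.4 FPKM with MGH-CP1 and 77.1 and 86.1 FPKM with vehicle (-0.39 ± 0.07; limma, adjusted p = 0.00358). For each of these 3 genes the groups did not overlap, where 74.1% of all tested genes were without overlap. They were named as the called genes of largest change, so this gap adds no support.

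The ephrin-B tail partners were set against shares of 20.0% called higher and 25.1% lower over all tested genes. Among 7 tested partners of the ephrin-B tail 1 rose and none fell, with a median of -0.06. That gene was SDCBP, the PDZ protein syntenin, at 67.5 and 66.9 FPKM with MGH-CP1 and 47.6 and 47.3 FPKM with vehicle (log2 fold change 0.49 ± 0.05; limma, adjusted p = 0.000385), a change of about the size seen for EFNB2.

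Proteases that cut Eph receptors or ephrins, with the subunits of gamma-secretase, had 6 of 11 tested genes higher and none lower, with a median of 0.28. Over all tested genes, 20.0% were called higher and 25.1% lower. APH1B, a gamma-secretase subunit, was at 5.02 and 5.90 FPKM with MGH-CP1 and 2.66 and 3.10 FPKM with vehicle (log2 fold change 0.73 ± 0.11; limma, adjusted p = 0.00183). ADAM17, a sheddase of many membrane proteins, was at 26.1 and 27.3 FPKM with MGH-CP1 and 18.8 and 20.3 FPKM with vehicle (0.43 ± 0.07; limma, adjusted p = 0.00191). MMP14, a membrane-bound metalloproteinase that can cut EPHA2, averaged 218 ± 18.6 FPKM with MGH-CP1 and 170 ± 1.10 FPKM with vehicle (SD, n = 2 each), without overlap (0.35 ± 0.07; limma, adjusted p = 0.00616). The MMP14 call was lost with no filter and without MGH-CP1 replicate 1 (limma, adjusted p of 0.056 and 0.0684). ADAM10, the best known ephrin sheddase and named after its values were seen, was at 71.1 and 71.0 FPKM with MGH-CP1 and 68.9 and 73.8 FPKM with vehicle, with a log2 interval of -0.14 to 0.13 (limma, adjusted p = 0.956).

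All 3 tested phosphatases of the list of 5 that act on Eph receptors were called lower, where 25.1% of all tested genes were. The median log2 fold change of the 3 was -0.45. PTPRF, the receptor phosphatase LAR, was at 111 and 110 FPKM with MGH-CP1 and 151 and 150 FPKM with vehicle (log2 fold change -0.45 ± 0.05; limma, adjusted p = 0.000611). ACP1, the low molecular weight phosphatase, was at 24.0 and 25.5 FPKM with MGH-CP1 and 35.3 and 35.4 FPKM with vehicle (-0.50 ± 0.06; limma, adjusted p = 0.000649). PTPN1, or PTP1B, was at 43.8 and 42.3 FPKM with MGH-CP1 and 57.6 and 54.0 FPKM with vehicle (-0.37 ± 0.06; limma, adjusted p = 0.00243). For each of these 3 genes the groups did not overlap, where 39.4% of all tested genes were lower without overlap. All 3 had already been called lower, so this gap adds no support.

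**Figure D4:**
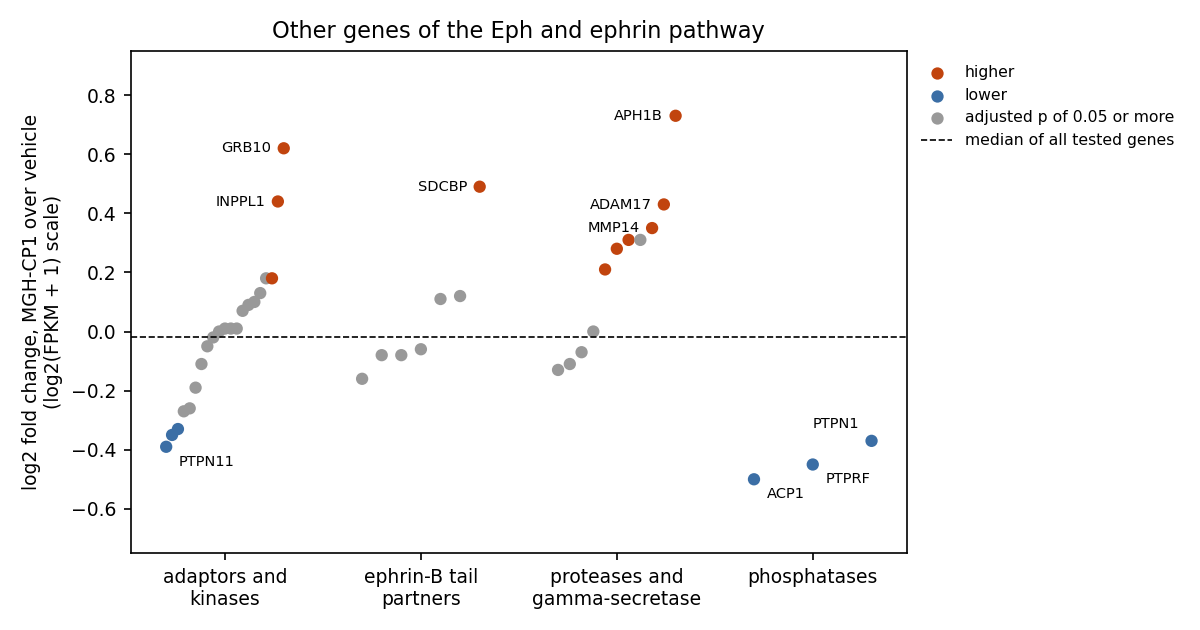
Log2 fold change of MGH-CP1 over vehicle for each tested gene of 4 of the lists, a point per gene, coloured by the limma call, with the up to 3 called genes of largest change named in each list and a dashed line at the median of all tested genes (-0.02). Points of the protease list lie mostly above the line (median 0.28), the 3 phosphatases lie below it (median -0.45), and the adaptors and kinases and the ephrin-B tail partners spread around it.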

How the data were processed

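RNA was sequenced from 4 libraries of MDA-MB-231 cells, 2 with MGH-CP1 and 2 with vehicle. The authors deposited 1 table of FPKM values with gene length and hg19 coordinates. Per the submitters' processing notes, base calling used CASAVA 1.8 and alignment used STAR to hg19. Which counter and annotation were used, and whether strand was kept, is not stated in the labels. FPKM times gene length gave whole multiples of 1 step in each library (100% of values above 0, within 0.001), taken as reads. A single read on 1 kb was worth 0.0541 to 0.0596 FPKM, which limits genes near 2 FPKM.

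Testing covered genes averaging 1 FPKM or more, on log2(FPKM + 1) with limma 3.58.1 (R 4.3.3), with group as the only term, a mean-variance trend and Benjamini-Hochberg adjustment over all genes tested, and the scripts were tested on simulated data. For repeated symbols the row with the highest mean was used. The 11 alternatives were another pseudocount (0.1), no filter, a filter of 5 FPKM, voom on recovered reads with TMM scaling, median-ratio scaling, no trend, a replicate block and leaving out each library. Of the pathway lists 1, and of the immune markers 1, is not reported here singly, though both count in the totals. Of 108 further list entries 107 matched the table. Named in the text were the 10 genes, tested relatives, and in each of the 4 pathway lists described up to 3 called genes of largest change. Members and lists were chosen with earlier results of these data known. RefSeq windows matched 20 of the 22 family genes by symbol. Python 3.11.15, pandas 2.3.3, numpy 2.4.6 and matplotlib 3.10.9 were used.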

Additional observations from a re-analysis of the deposited data

How the results depend on the processing

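The counts and calls rest on 2 libraries a group, and with 1 left out the lone library is assumed to vary like the other group. Leaving out each library in turn gave 1 to 4 of the 9 tested genes higher and 1 to 2 lower, 9 to 16 pathway genes higher and 5 to 10 lower, and 1450 to 2554 of all tested genes higher and 2039 to 3066 lower. With no filter on low values 2 of the Eph and ephrin genes were higher (EFNB2 and EFNA5), as were 9 pathway genes and 1568 of all genes. Every gene with a read entered that fit, so its base is larger than the 11790 genes of the main test. In the main test 2355 genes (20.0%) were called higher. With no mean-variance trend 2 were lower (EPHA2 and EFNB1). EFNA4 changed sign without vehicle replicate 2 (log2 difference -0.12, and 0.27 without vehicle replicate 1). Whether MGH-CP1 and vehicle libraries of the same number belong together is not stated. The correlation of same-numbered deviations was 0.0502 across tested genes, which cannot settle this with 2 libraries a group. With a replicate block 4 of the 9 genes were higher and 1 lower, as without it, and 2453 of all genes were higher and 3036 lower. EPHA2 and EFNB2 kept their calls and directions in all 11 alternatives. Genes near 2 FPKM rested on 36 to 315 reads a library, which limits EFNA1, EFNA4, EFNB1 and EPHA4.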
